A study of Mus musculus with 12 samples.

Results

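Cytosolic ribosomal proteins are the protein components of the ribosomes that translate nuclear-encoded mRNAs. They were chosen by gene symbol alone (Rpl or Rps names, Rplp0, Rplp1, Rplp2 and Rpsa, with pseudogene symbols left out), which gave 85 of the 18050 genes in the deposited table. Of these, 31 encode canonical proteins of the small subunit, 43 of the large subunit and 3 of the stalk. The other 8 were classed as paralogues of a canonical gene (Rpl3l, Rpl22l1, Rps27l, Rpl36al, Rpl7l1, Rpl10l, Rpl32l and Rpl39l). Rpl32l had 0 annotated coding bases. After the filter on low counts 82 members were tested. Rpl10l, Rpl32l and Rpl39l were nearly uncounted (mean 0.0458, 0.202 and 0.864 TPM, the length-corrected transcript count scaled to a fixed total) and were not tested.

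Ribosomal proteins of the small subunit help to hold and decode the mRNA, those of the large subunit surround the centre that joins amino acids, and the stalk proteins recruit the factors that drive elongation. Their mRNAs are short, abundant and usually made in step. Most start with a C followed by a run of C and T, the terminal oligopyrimidine tract, through which the mTORC1 kinase controls their translation. Striated muscle also makes Rpl3l, a paralogue of Rpl3, which sits near the peptidyl transferase centre.

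The tissue was left ventricle of mice with the genotype wild type, 7 days after a sham operation or after MI, read here as myocardial infarction. Each group had 6 libraries, made from total RNA by capture on oligo(dT) beads. The submitters' processing notes differ between replicates 1 and 2 and replicates 3 to 6, which are treated as 2 sets. No label says whether the libraries came from separate animals, and no strain, age or sex was given, so p-values here reflect only how far the libraries scatter, and that scatter may be technical.

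Expected counts totalled 9140353 to 16066681 in sham and 14168412 to 18602226 in MI libraries. Libraries of replicates 3 to 6 lay close together, with a chi-square per degree of freedom of 1.73 (sham) and 1.52 (MI), where pure counting error gives 1, against 13.3 and 65.6 in replicates 1 and 2. A gene is therefore said to rise or fall only where 2 edgeR tests called it the same way at an adjusted p under 0.05, one over all 12 libraries and one that summed replicates 3 to 6 into 1 library per group. Sham replicates 3 to 6 also stood apart in how reads of near-identical genes were assigned: at least 99.88% of their beta-globin counts went to Hbb-bs and Hbb-bt, against 0.0596 to 0.194% in MI replicates 3 to 6. All 8 cardiomyocyte marker genes fell and 6 of 7 fibroblast and 6 of 7 macrophage markers rose. The summed cardiomyocyte level went from 105000 to 105700 in sham to 6080 to 9872 CPM, counts scaled to a fixed library total, in MI replicates 1 and 2, and from 96150 to 98460 to 30140 to 30720 CPM in replicates 3 to 6, and no marker of that list, led by Mb and Myh6, was at 0. Of the markers tested, 1 of 4 neutrophil and 5 of 5 proliferation markers rose, 1 of 5 endothelial markers fell, and 0 of 5 lymphocyte and 0 of 5 erythroid markers were called. Lung epithelium markers, led by Sftpc, summed to 158 to 163 CPM in MI replicates 3 to 6 and to at most 0.362 CPM elsewhere. In bulk tissue, fewer cells of a type and less RNA per cell cannot be told apart.

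The pair on which the results turn is Rpl3 and Rpl3l. Rpl3 lies on the minus strand of chromosome 15 (80077781 to 80083406, GRCm38) and Rpl3l on the plus strand of chromosome 17 (24727826 to 24736143). Their coding sequences in GENCODE were 73.7% identical over 1209 aligned bases, and no stretch of 50 bases was the same in both. The first 120 coding bases show the spacing of the differences, with each of the 31 differing bases in capitals.
Rpl3: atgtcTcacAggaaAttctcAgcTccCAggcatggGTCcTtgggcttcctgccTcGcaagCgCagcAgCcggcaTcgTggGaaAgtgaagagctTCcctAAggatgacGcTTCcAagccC
Rpl3l: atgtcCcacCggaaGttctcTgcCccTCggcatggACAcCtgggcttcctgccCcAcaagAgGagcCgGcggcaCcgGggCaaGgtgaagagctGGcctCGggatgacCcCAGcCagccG

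Rpl3l, the striated muscle form, fell and Rpl3, its ubiquitous counterpart, rose. Rpl3l was at 565 and 498 TPM in sham replicates 1 and 2 and at 15.4 and 22.9 TPM in the MI libraries of that set. In replicates 3 to 6 it was at 528, 501, 478 and 503 TPM after sham and at 124, 118, 122 and 125 TPM after MI. Every MI library lay below every sham library, and the sham levels of both sets were alike while the MI levels were not.

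Rpl3 was at 276 and 297 TPM in sham and 1046 and 1051 TPM in MI replicates 1 and 2. In replicates 3 to 6 it was at 448, 452, 463 and 444 TPM after sham and 1164, 1161, 1184 and 1144 TPM after MI. Every MI library lay above every sham library, across sets too. The log2 fold change in the 12-library test, MI against sham and scaled with TMM (edgeR's trimmed mean of M-values), was -3.54 ± 0.44 (SE, edgeR adjusted p = 1.21e-05) for Rpl3l and 0.88 ± 0.09 (adjusted p = 3.39e-06) for Rpl3. With replicates 3 to 6 counted once the values were -4.61 ± 0.68 (edgeR adjusted p = 0.00308) and 1.03 ± 0.21 (adjusted p = 0.00797). The rise of Rpl3 lost its call in that test without sham replicate 1 (edgeR adjusted p = 0.0572) or sham replicate 2 (0.0548).

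**Figure D1:**
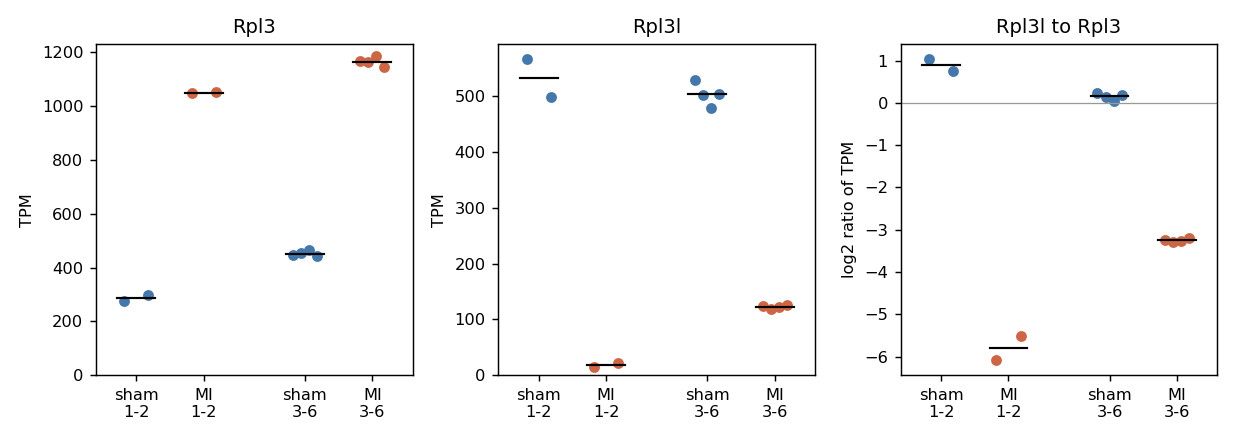
TPM of Rpl3 and of Rpl3l and their log2 ratio, 1 point per library, with the mean of each group and set as a line. Rpl3l lies above Rpl3 in every sham library (log2 ratio above 0) and far below it in every MI library.

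The ratio of the 2 genes within a library does not depend on how libraries are scaled. In sham libraries Rpl3l was 1.03 to 2.05 times Rpl3 in TPM, so it was the more abundant of the pair. In MI libraries it was 0.0147 and 0.0218 times Rpl3 in replicates 1 and 2 and 0.102 to 0.110 times in replicates 3 to 6. The log2 ratio differed by -6.70 between groups in replicates 1 and 2 and by -3.40 in replicates 3 to 6. The mean of both was -5.05 (exact two-sided permutation test with labels exchanged within sets, p = 0.00476, the smallest that 420 arrangements allow; adjusted over 5 pairs, p = 0.0119). The MI effect on Rpl3l was smaller in replicates 3 to 6 by 2.79 on the log2 scale, a difference that also passed with those replicates counted once (edgeR adjusted p = 0.0156). The cardiomyocyte marker levels above differed between the sets in the same order as Rpl3l, with less left in MI replicates 1 and 2. Their part in the fall of Rpl3l was not tested.

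The other 4 paralogue pairs that could be measured moved far less. Rpl22l1, the paralogue of Rpl22, gained on its partner by a log2 ratio of 0.53 in the first set and 0.05 in the second (exact permutation test within sets, adjusted p = 0.0119), and its groups overlapped across sets. The call was lost without sham replicate 1 or sham replicate 2 (exact permutation adjusted p = 0.563 for each). In sham libraries Rpl22l1 stood at 81.4 and 84.6 TPM in replicates 1 and 2 and at 403 to 431 TPM in replicates 3 to 6. The ratio of Rpl36al to Rpl36a differed by -0.70 and -0.08 (exact permutation adjusted p = 0.0397), a call that was lost without any 1 of 7 libraries (sham replicates 1, 2, 3, 4 and 6 and MI replicates 4 and 5). For Rps27l to Rps27 (-0.75 and 0.23) and Rpl7l1 to Rpl7 (-0.80 and 0.26) the sets went opposite ways (exact permutation adjusted p = 0.333 for both). With replicates 3 to 6 averaged and counted once, no pair can pass, since 3 against 3 libraries cannot go below an exact p of 0.1.

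Besides Rpl3, 1 member rose by both tests. Rpl39, a very short large subunit protein of the exit tunnel (chromosome X, 37082518 to 37085222), was at 331 and 351 TPM in sham and 1093 and 1300 TPM in MI replicates 1 and 2, and at 837 to 913 TPM and 1385 to 1549 TPM in replicates 3 to 6. In TPM the lowest MI library was above the highest sham library. The 12-library test gave it a log2 fold change of 0.44 ± 0.16 (edgeR adjusted p = 0.0225). Counted once, the value was 0.78 ± 0.26 (edgeR adjusted p = 0.0427). The second call was lost without any 1 of the 4 libraries of replicates 1 and 2 (edgeR adjusted p = 0.0969 to 0.181).

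In all, 2 of 82 members rose (28.1% of all genes tested did) and 1 fell (29.8% of all genes), and 79 were not called by both tests. The 12-library test alone called 3 higher and 16 lower (37.9% and 38% of all genes), with a median log2 fold change of -0.08 over members and 0.01 over all genes. Counted once, 2 were called higher and 1 lower (28.2% and 29.5% of all genes), with a members' median of 0.18. A scaling by library size alone moved the 12-library median of all genes to 0.42, and then 28 members rose and 1 fell by both tests (46.1% and 18.2% of all genes). On that scale the 12-library test called 45 higher and 3 lower (57% and 23.5% of all genes) and the test with replicates 3 to 6 counted once 29 and 1 (46% and 18.1%).

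The small count of calls covers opposite values in the 2 sets. Called the same way within both sets were 3 members higher (Rpl3, Rpl39 and Rps26) and 2 lower (Rpl3l and Rps2), against 28.5% and 28.3% of all genes, while 42 were called opposite ways. With library size alone these counts were 38 higher and 1 lower (44.8% and 17.9% of all genes), with 21 opposite ways. The share of all genes called opposite ways was not counted on any scale. These opposite calls therefore cannot be read as particular to the members. In TMM-scaled CPM, Rpl3 was the 1 member with all MI above all sham libraries and Rpl3l the 1 with all below (21.2% and 21.3% of all genes). Within replicates 1 and 2, 53 of 82 members passed higher and 2 lower (34.1% and 32.9% of all genes, edgeR). Without sham replicate 1 the count higher was 12, and without sham replicate 2 it was 21 (shares of all genes not counted). Within replicates 3 to 6, 4 passed higher and 70 lower (42.2% and 39.5% of all genes). Of the 77 canonical members 71 had a log2 fold change above 0 in the first set (median 0.47), and 71 had one below 0 in the second (median -0.30). With library size alone these counts became 76 above 0 (median 0.93) and 32 below 0 (median 0.05), so the direction in replicates 3 to 6 depends on the scaling. The members called with library size alone were 77 higher and 1 lower in the first set (50% and 22.1% of all genes) and 39 and 25 in the second (59.7% and 26%). On the TMM scale all 77 canonical members had a lower MI effect in replicates 3 to 6 in the 12-library interaction test. Of all 82 members, 80 were lower and 2, the paralogues Rpl3l and Rpl7l1, higher (26.8% and 28.2% of all genes). With replicates 3 to 6 counted once 27 were lower and 1 higher (3.84% and 6.55% of all genes). Without a filter on low counts 8 were lower (share of all genes not counted).

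**Figure D2:**
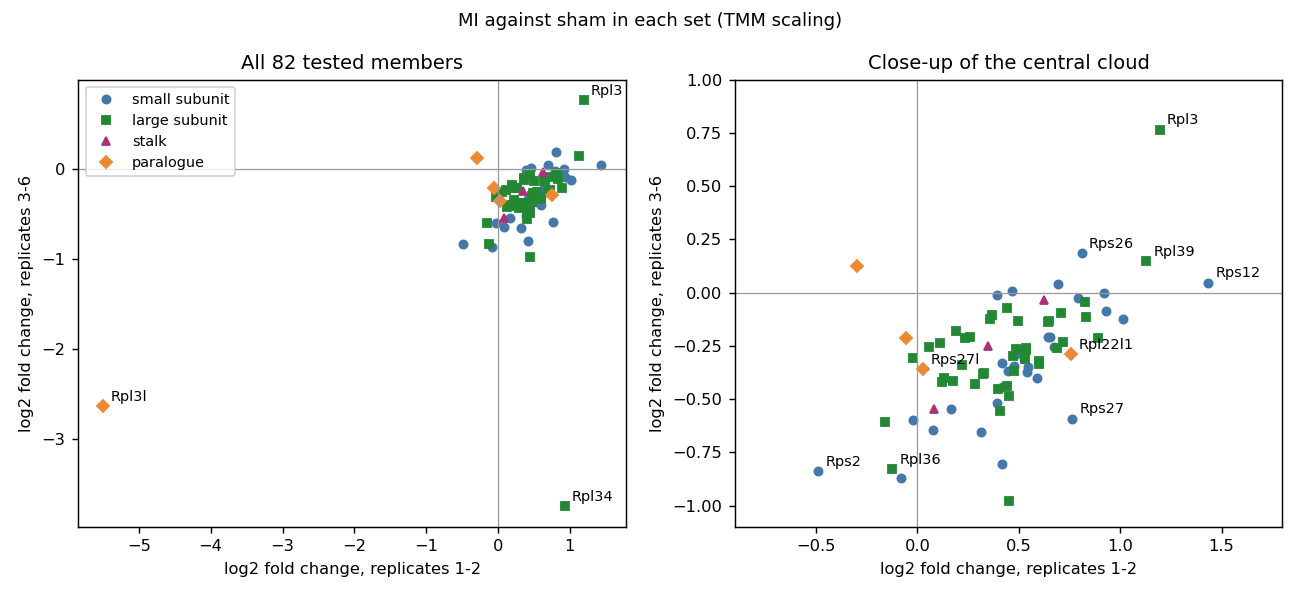
Log2 fold change of each tested member within replicates 1 and 2 (x axis) and within replicates 3 to 6 (y axis), by subunit; the right panel enlarges the central cloud. Most members lie right of 0 and below 0, Rpl3 lies above 0 in both sets, and Rpl3l and Rpl34 lie far from the rest.

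The levels show where the sets part, which differs with the measure and the class of members. Members together made up 5.51 and 5.73% of TPM in sham and 12.3 and 12.1% in MI replicates 1 and 2. In replicates 3 to 6 they made up 10.2 to 10.3% in sham and 12.2 to 12.4% in MI libraries. In this total, MI libraries of both sets were alike, and the sham libraries of the first set stood far below those of the second. The small subunit went from 2.29 to 5.13% in the first set and from 4.51 to 5.34% in the second, and the large subunit from 2.77 to 5.99% and from 5.05 to 6.13% (means of 2 and 4 libraries). The stalk proteins went from 0.442 to 0.948% and from 0.523 to 0.68%, so their sets lay further apart in MI than in sham libraries. In TPM, 81 of 82 members had both MI libraries above both sham libraries in replicates 1 and 2 (65.3% of all genes). In replicates 3 to 6, 65 had all MI libraries above all sham libraries and 6 all below (67.5% and 16.4% of all genes). Across all 12 libraries 41 were above and 1 below (41.6% and 9.27% of all genes). In replicates 1 and 2 the members' median TPM fold, MI to sham, was 2.22, against 1.65 for all genes tested. In replicates 3 to 6 it was 1.24 against 1.55, and over 12 libraries 1.43 against 1.57, so members gained less than the median gene there. Against genes of like length the order depended on length. In replicates 3 to 6 the median TMM log2 fold change under 500 bases was -0.34 for 26 members and -0.86 for other genes. From 500 to 1000 bases it was -0.31 (37 members) and -0.58. From 1000 to 2000 bases it was -0.26 (15 members) and -0.15, and the few longer members also lay below other genes.

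**Figure D3:**
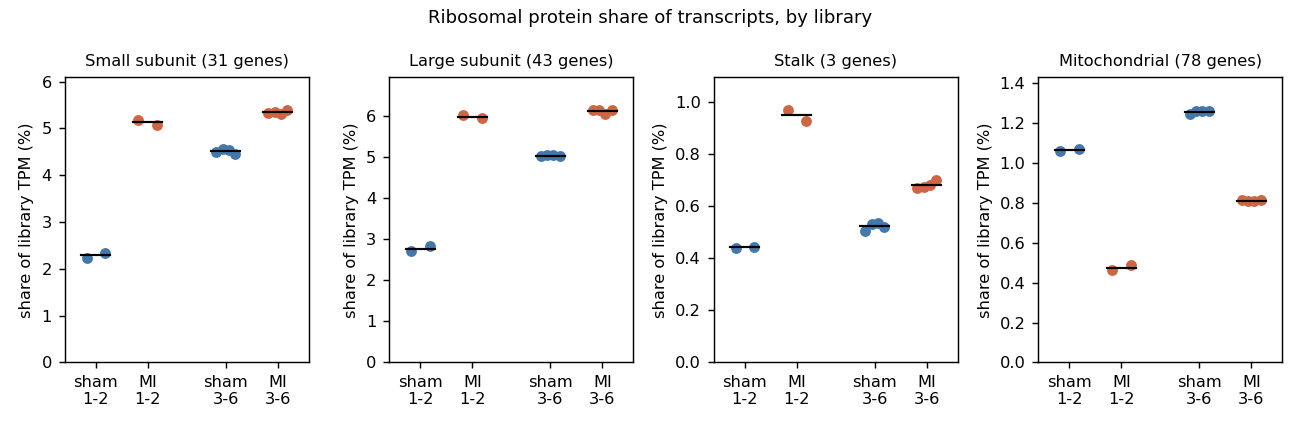
Share of each library's TPM taken by small subunit, large subunit, stalk and mitochondrial ribosomal protein genes, 1 point per library, lines at the means, axes from 0. The cytosolic classes are lowest in sham replicates 1 and 2, and the mitochondrial class is lower after MI in both sets.

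Read as a share of expected counts, which favours longer transcripts, the members rose from 2.27 to 4.17% in the first set and stood at 4.92 and 5.02% in the second. On this measure the MI libraries of the 2 sets differed too.

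Mitochondrial ribosomal proteins, which build the separate ribosomes of mitochondria, moved otherwise. All 78 fell by both tests, with a 12-library median of -1.34, and their share of TPM went from 1.07 to 0.475% and from 1.26 to 0.811%. In the 12-library interaction test 64 had a higher (less negative) MI effect in replicates 3 to 6 and 0 a lower one (28.2% and 26.8% of all genes). Counted once, 15 were higher and 0 lower (6.55% and 3.84% of all genes).

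The most abundant members were Rplp1, a stalk protein, and Rpl41, the smallest ribosomal protein, at means of 2986 and 2910 TPM over 12 libraries. Rplp1 was at 1965 and 2020 TPM in sham and 5038 and 4821 TPM in MI replicates 1 and 2, and at 2142 to 2292 and 3146 to 3375 TPM in replicates 3 to 6. Its groups did not overlap in TPM, yet on the TMM scale its log2 fold change was 0.16 ± 0.12 (edgeR adjusted p = 0.26). Rpl41 had 0.14 ± 0.14 (edgeR adjusted p = 0.368). Rpl23a, Rps14, Rps15 and Rpl35 had 12-library values of -0.25, -0.10, -0.34 and -0.17, and of these Rps15 passed in that test (edgeR adjusted p = 0.0283), though not with replicates 3 to 6 counted once (0.75). Rps15 changed sign with library size alone (0.07).

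Rps2, a small subunit protein, had the lowest 12-library value among the 8 most abundant members. It was at 1403 and 1317 TPM in sham and 1520 and 1585 TPM in MI replicates 1 and 2, and at 2871 to 3217 and 2482 to 2620 TPM in replicates 3 to 6. Its log2 fold change was -0.49 (edgeR adjusted p = 0.0148) and -0.84 (3.00e-20) within the sets and -0.63 ± 0.23 with replicates 3 to 6 counted once (adjusted p = 0.0594), so it was not called by both tests. In replicates 1 and 2 its TPM did not fall, and with library size alone it was not called lower there. The fall in that set therefore depends on the scaling. Rps2 (chromosome 17, 24718121 to 24721927, plus strand) lies upstream of Rpl3l on the same strand.

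Rps12, a small subunit protein, had the third smallest p for a difference between sets. It was at 681 and 676 TPM in sham and 3014 and 2852 TPM in MI replicates 1 and 2, the largest fold in TPM of any member there (4.32), and at 1462 to 1716 and 2404 to 2610 TPM in replicates 3 to 6. Its log2 fold change was 1.43 in the first set and 0.05 in the second (edgeR adjusted p = 0.000249 and 0.223), and the difference passed with replicates 3 to 6 counted once (adjusted p = 0.022). Small nucleolar RNA genes overlap 13.7% of its exon bases.

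Because a common shift hides differences between members, counts were also scaled to the summed counts of the canonical members without Rpl3 and Rpl34, a choice made after the values were seen. Such scaling holds the sum of those members equal in all libraries, so it cannot show a change common to them. On that scale 11 members passed higher in both sets and 8 lower (20.6% and 24% of all genes), and 2 passed opposite ways. Among those higher were Rps12 (log2 0.99 and 0.36 in the first and second set), Rpl3 (0.75 and 1.07), Rpl39 (0.69 and 0.46), Rps20 (0.58 and 0.19), Rps26 (0.37 and 0.49) and Rps16 (0.48 and 0.31). Rps27a, which is made fused to ubiquitin, Rpl10, Rpl12, Rpl13a and Rps19 completed them, and all of these are named for having passed. Among those lower were Rpl3l, Rps2 (-0.93 and -0.53), Rpl36 (-0.57 and -0.52), Rpl24 (-0.60 and -0.30), Rps29, Rps13 and the stalk protein Rplp2. The counts within each set were 11 higher and 12 lower in the first (22.2% and 44.1% of all genes) and 32 and 28 in the second (58% and 27%). Over 12 libraries they were 12 and 13 (36.9% and 27.7% of all genes). With replicates 3 to 6 counted once, 0 passed higher and 1, Rpl3l, lower (19.6% and 23.1% of all genes), and by both tests the counts were also 0 and 1 (19.4% and 22.2%). For Rpl3 the edgeR adjusted p counted once was 0.0591. The difference between sets on this scale was called higher for 22 and lower for 16 members (67.5% and 6.25% of all genes), and for 2 and 1 counted once (38.2% and 1.67%). Across all 77 canonical members, TMM log2 fold changes of the 2 sets had a Pearson r of 0.23 and a Spearman rho of 0.57, as a description across genes that share libraries within each set. Without Rpl3 and Rpl34, left out after their values were seen, r was 0.65 and rho 0.61 over 75 members.

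**Figure D4:**
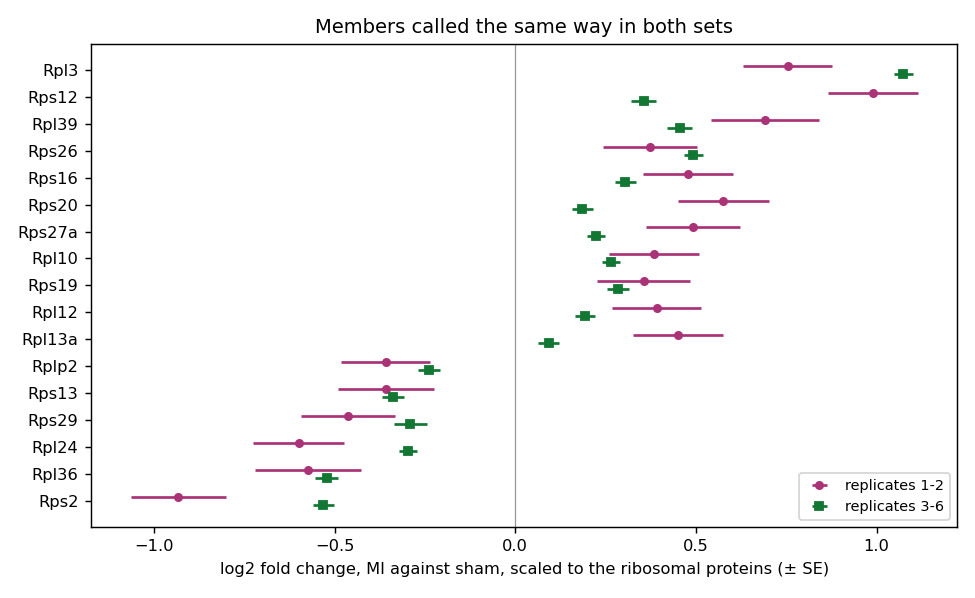
Log2 fold change with standard error of the members named in the text, other than Rpl3l, that passed the same way in both sets when counts were scaled to the ribosomal proteins. Values in replicates 1 and 2 have the wider errors, and Rpl3 is the only one of the 3 highest with the larger value in replicates 3 to 6.

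The start of the transcript could be read for 65 of the 85 members from RefSeq promoter windows of GRCm38. In the 30 bases centred on the annotated start, a run of C and T of at least 8 bases that opens with C was present in 27 of 65 members (41.5%), against 10.8% of 27025 genes. The letters CCGGAAG, an ETS motif, were found on either strand in 40% of members' windows (250 bases before to 50 after the start) and in 9.93% of all genes, and TATAAA in 12.3% and 15.7%. The 30 bases around the start are printed for 3 members that were higher and 1 that was lower on the ribosomal protein scale, and for Rpl3l, with the longest run of C and T that opens with C in capitals. Rpl3l has a second annotated start, which is not shown.
Rps12: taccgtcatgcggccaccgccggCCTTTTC
Rpl39: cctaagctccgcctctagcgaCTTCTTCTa
Rps26: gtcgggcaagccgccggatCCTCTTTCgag
Rps2: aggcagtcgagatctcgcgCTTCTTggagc
Rpl3l: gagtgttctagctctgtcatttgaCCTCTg

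Rpl34, a large subunit protein, had the largest fold change of any member within replicates 3 to 6, and its value is uncertain. Rpl34 (chromosome 3, 130726827 to 130730398) has an intronless copy, Rpl34-ps1, on chromosome 6 (71124610 to 71124963), and the table counts both. Their coding sequences differed at 2 of 351 bases, and 71.5% of all stretches of 50 bases were the same in both. A part of 120 bases with 1 of the differences in capitals shows this.
Rpl34: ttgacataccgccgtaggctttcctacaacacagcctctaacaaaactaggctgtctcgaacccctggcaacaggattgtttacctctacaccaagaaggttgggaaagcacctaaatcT
Rpl34-ps1: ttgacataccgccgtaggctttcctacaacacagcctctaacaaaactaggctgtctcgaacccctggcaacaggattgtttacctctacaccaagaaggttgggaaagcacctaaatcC

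Rpl34 had 3286, 3050, 3420 and 3296 expected counts in sham replicates 3 to 6 and 451, 452, 449 and 499 in MI replicates 3 to 6, a log2 fold change of -3.75. Its copy took 0 to 0.13% of the summed counts in those sham libraries and 92 to 92.9% in those MI libraries. In replicates 1 and 2 the copy took 96.35 to 97% in both groups. The sum of Rpl34 and its copy had log2 ratios of MI to sham of 0.80 in the first set and -0.05 in the second. The same sham libraries are those that stand apart in the beta-globin counts. Rpl31 and its copy Rpl31-ps12 were split differently between sets but not between groups, with 16.66 to 17.97% of counts given to the copy in replicates 1 and 2 and 64.2 to 68.7% in replicates 3 to 6. Of the 85 members, 76 have at least 1 annotated gene with 95% identity over 80% of the coding sequence, and for 9 such a copy is in the table.

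**Figure D5:**
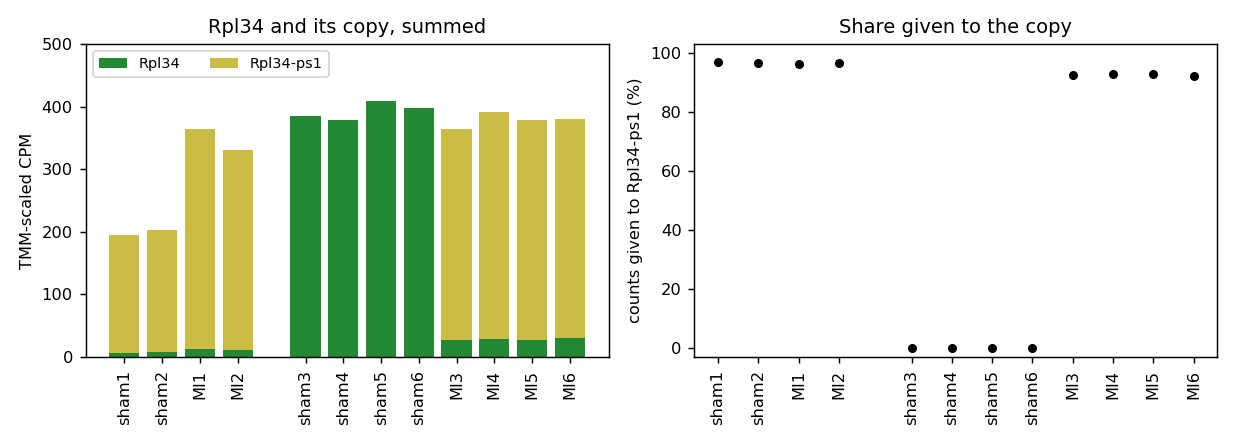
TMM-scaled CPM of Rpl34 and Rpl34-ps1 stacked for each library, and the percent of their summed counts given to the copy. The copy takes nearly all counts in 8 libraries and almost none in sham replicates 3 to 6, while the summed bars of replicates 3 to 6 are alike.

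Genes that work with the ribosome are given by list, each to be read against the 28.1% of all genes that rose and the 29.8% that fell by both tests. Fau, which encodes Rps30 under another symbol, was not called (0.22). Among 36 initiation factor genes 1 rose and 17 fell. Pabpc1, the poly(A) binding protein, rose by 1.24, Eif1, which guards start codon choice, fell by 1.14, and the helicase gene Eif4a1 was not called (0.45). Among 15 elongation and release factor genes 2 rose and 6 fell. Eef1d, an exchange factor of elongation, fell by 1.05, the ribosome rescue gene Hbs1l fell by 0.86, and Eef2 was not called (-0.38). The elongation factor paralogues Eef1a1, which is ubiquitous, and Eef1a2, the form of muscle and neurons, went opposite ways, at 1.07 and -2.43, a pair chosen after its values were seen.

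Of 17 other genes known for terminal oligopyrimidine tracts 3 rose and 3 fell, and the most abundant gene not called was Tpt1 (-0.44). Like most members, 15 of them had a lower MI effect in replicates 3 to 6 in the 12-library interaction test. A higher one was called for 1 (26.8% and 28.2% of all genes). Counted once, 1 was lower and 0 higher (3.84% and 6.55% of all genes). RNA polymerase I genes had 1 rise and 2 falls of 15, with Taf1a at -0.996 and the initiation factor gene Rrn3 at -0.80, and Polr1d not called (-0.35). Of 50 ribosome biogenesis genes 3 rose and 12 fell, with Nop10 at -0.99 and Imp3 at -0.69, and Ncl, nucleolin, not called (-0.02). The sets differed for this list. Within replicates 1 and 2, 2 passed higher and 21 lower (34.1% and 32.9% of all genes). Within replicates 3 to 6, 25 passed higher and 10 lower (42.2% and 39.5%). With library size alone 22 of the biogenesis genes rose and 3 fell by both tests (46.1% and 18.2%). Of 24 genes of mTORC1 and its translation targets 3 rose and 12 fell. Sesn1, a sestrin that restrains mTORC1, fell by 1.28 and Akt1s1, an mTORC1 inhibitor, by 0.82, while Rraga was not called (-0.22). Ribosome quality control and hibernation genes had 1 rise and 7 falls of 13, with Ccdc124 at -0.87 and Habp4 at -1.01, and Tcf25 not called (-0.04). With library size alone the values of Eef2, Polr1d, Ncl, Rraga and Tcf25 were above 0, and over these lists 48 genes rose and 22 fell (46.1% and 18.2% of all genes on that scale).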

How the data were processed

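Left ventricular RNA of 6 sham and 6 MI libraries was analysed, grouped by the labels. The authors deposited expected counts per gene, not scaled, which were rounded here. The TPM values, as deposited by the authors, are corrected for length and brought to 1 total per library. The FPKM values, as deposited by the authors, are corrected for length and library size. A second deposited table gives FPKM of replicates 1 and 2. Per the submitters' processing notes the build was GRCm38, and Bowtie2, RSEM and DESeq2 are named there for replicates 3 to 6 with no version. Whether counting used strand: not given in the sources used here. Reads of overlapping genes therefore cannot be told apart (over 10% of exon bases in 16 members). Blank in replicates 1 and 2 were 425 genes, left out of tests over 12 libraries.

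Counts were tested with edgeR 4.0.16 (quasi-likelihood, TMM, filterByExpr, set as covariate) in R 4.3.3, with Benjamini-Hochberg adjustment over all genes tested. The same test was run with replicates 3 to 6 summed, within each set, and for the interaction of set and group. SE is the log2 fold change over the square root of F. The edgeR test was also run on simulated counts with 200 changed genes. These were drawn without a difference between sets, so they cannot show how the test handles such differences. Deviations of same-numbered libraries had correlations of -0.0448 to 0.0529, a check that cannot exclude pairing. In replicates 1 and 2 the deviations of a group mirror each other, and replicates 3 to 6 scatter little beyond counting error. Paralogue ratios used TPM and exact permutation within sets, where both genes had at least 10 counts in every library of 1 group. Alternatives covered scaling, filter, DESeq2 1.42.0, limma 3.58.1 on log2(FPKM + 1) and log2(FPKM + 0.1), covariate, replicate block and leaving out libraries. Copies were found with BLAST 2.17.0, and sequences come from GENCODE vM21 and RefSeq tables of GRCm38. Promoter windows were missing for 20 members, Rpl3 among them.

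Members, gene lists and tests were chosen with earlier results of these data known. Named genes are the 8 most abundant members, paralogue pairs, the largest rises and falls called by both tests (up to 5 each), the 3 smallest interaction p-values, from each translation list the 2 smallest 12-library p-values the most abundant gene not called, and the 2 most abundant genes of a marker list. Rps26 and the members named on the ribosomal protein scale were chosen after their values were seen, as were that scale and the test within both sets. Results of some genes that this rule names are not reported here.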

Additional observations from a re-analysis of the deposited data

Results flagged for a closer look

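The effect of MI differed between the sets, by the interaction test with replicates 3 to 6 counted once (edgeR, adjusted p under 0.05). It was lower in replicates 3 to 6 for 27 members and higher for 1, which was Rpl3l (3.84% and 6.55% of all genes). Without a filter on low counts 8 were lower (share of all genes not counted), and with scaling to the ribosomal proteins 1 was (1.67% of all genes). Among the members named by rule the differences on the log2 scale were 2.76 for Rpl3l (adjusted p = 0.0156), -4.77 for Rpl34 (0.0109), -1.48 for Rps12 (0.022), -1.45 for Rps27 (0.0237), -1.08 for Rps14 (0.0413) and -1.07 for Rpl39 (0.0403). Rpl34 shares its reads with a copy, as given in the report.

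Among groups of 4 or 6 libraries, 3 single libraries lay far from the rest of their group, by a gap above the 95% critical value of Dixon's test, among 116 groups looked at, where chance flags about 1 in 20. Sham replicate 5 had 1400 TPM of Rps4x, below the other sham libraries of replicates 3 to 6 (1469 to 1479 TPM). MI replicate 6 had 131 TPM of Rpl34, above 118 to 120 TPM in MI replicates 3 to 5. MI replicate 2 had a log2 ratio of Rpl36al to Rpl36a of -0.604, above the other MI libraries (-1.04 to -0.886).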

How the results depend on the processing

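Scaling decided the counts of members called. Shares of all genes were not counted for limma, DESeq2, no filter, the covariate and block settings or left-out libraries. Those counts show only how the calls move with the setting. The 12-library test called 3 higher and 16 lower; library size alone gave 45 and 3, limma on log2(FPKM + 1) or log2(FPKM + 0.1) 42 and 3 each, scaling to the ribosomal proteins 12 higher, and DESeq2 5 higher. Counted once, library size alone called 29 higher and scaling to the ribosomal proteins 0. By both tests these scalings gave 28 and 0 that rose. Within replicates 1 and 2, scaling to the ribosomal proteins gave 11 higher and 12 lower, and library size alone 1 lower. Within replicates 3 to 6 library size alone gave 39 and 25, and scaling to the ribosomal proteins 32 and 28. For the difference between sets that last scaling gave 22 higher and 16 lower (2 and 1 counted once), and testing without a filter on low counts left 8 lower counted once. The members' median reversed to 0.33 over 12 libraries (library size alone, and limma with either pseudocount) and to 0.05 within replicates 3 to 6 (library size alone). Scaling to the ribosomal proteins brings that median near 0 by construction (0.01 over 12 libraries and 0.02 within replicates 3 to 6), so its sign there has no meaning.

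Other translation genes that rose and fell became 48 and 22 with library size alone (46.1% and 18.2% of all genes). With scaling to the ribosomal proteins they became 6 and 29 (19.4% and 22.2% of all genes). Signs reversed with library size alone and with limma at pseudocounts 1 and 0.1 for Rps15 (0.07, 0.07, 0.07), Rps27l (0.15, 0.14, 0.14), Rpl36al (0.22, 0.22, 0.22), Rpl7l1 (0.37, 0.35, 0.36), Eef2 (0.03, 0.02, 0.02), Polr1d (0.06, 0.05, 0.05), Ncl (0.39, 0.39, 0.40), Rraga (0.19, 0.18, 0.18) and Tcf25 (0.37, 0.32, 0.33).

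Without the set covariate 1 member was higher and 6 lower. Whether replicate numbers pair libraries could not be decided. With the replicate block 1 was higher and 8 lower over 12 libraries. The gain of members in share of TPM (6.55 and 2.06 percentage points) was 1.90 and 0.0953 in expected counts, and 2.17 in replicates 3 to 6 without Rpl34. With replicates 3 to 6 averaged and counted once, the ratios of Rpl3l (-5.6), Rpl22l1 (0.37) and Rpl36al (-0.49) to their partners lost their calls, since too few arrangements remain.

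Leaving out 1 library at a time gave 2 to 4 members higher and 12 to 27 lower over 12 libraries (27 without sham replicate 1), 12 to 56 higher and 1 to 3 lower within replicates 1 and 2 (12 without sham replicate 1, 21 without sham replicate 2), 4 to 5 higher and 70 to 71 lower within replicates 3 to 6, and 0 to 1 higher and 1 lower counted once. The ratio of Rpl22l1 to Rpl22 ranged from 0.14 to 0.44 and that of Rpl36al to Rpl36a from -0.46 to -0.32. Rpl10l, Rpl32l and Rpl39l had too few counts to test, and the effect of depth on the members was not tested.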
